A study of Capra hircus with 12 samples.

Results

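The miR-200 family was examined in secondary hair follicles (SHFs), the follicles from which goats grow cashmere. Its members were taken by name, as every listed miRNA called miR-200a, miR-200b, miR-200c, miR-141 or miR-429, and 5 of the 376 listed miRNAs matched. The members were chi-miR-200a, chi-miR-200b, chi-miR-429, chi-miR-200c and chi-miR-141. All 5 were listed under names without an arm, so the arm could not be read from the name.

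The miR-200 family is typical of epithelial cells. It represses ZEB1 and ZEB2, transcription factors that switch off E-cadherin, and so helps to hold cells in an epithelial state. The family is made from a pair of polycistronic clusters, 1 with miR-200a, miR-200b and miR-429 and the other with miR-200c and miR-141. A miRNA finds its targets mainly through its seed, a short stretch near its 5′ end, and the family has 2 seed groups that differ by a single base. miR-200b, miR-200c and miR-429 form 1 seed group and miR-200a and miR-141 the other, so each cluster carries both seeds. In the RefSeq annotation of goat assembly ARS1.2, MIR429, MIR200A and MIR200B were neighbours, MIR141 and MIR200C were neighbours, and 0 other genes started between the members of either cluster. The reads were mapped to another assembly, CHIR_2.0, so no coordinates are given.

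The data were 12 small RNA libraries of SHFs from Liaoning cashmere goats labelled as 1.5 years old, taken in 6 months, each month with a female and a male library. The phases were telogen, the resting phase (February and March, 4 libraries), early anagen, when growth begins (2 libraries of May), mid-anagen (2 of September) and catagen, the regression phase (4 of November and December). The study's methods describe 3 male and 3 female goats per time point, do not say how they were combined into a library, and describe SHFs cut free of epidermis and connective tissue under a dissecting microscope. No goat was treated and no gene was altered, so the libraries differed by month and sex alone as far as the labels go. The p-values below measure the spread between libraries. In the comparisons of phases and of parts of the year, the 2 libraries of a month count as separate units. Those p-values therefore do not measure the spread between months. With 1 library of each sex per month, a difference between the sexes within a month cannot be told apart from a difference between libraries.

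The members were present in every library. The libraries held 3135292 to 5788032 miRNA counts, at which the floor of 3 counts lies between 0.518 and 0.957 TPM, and the lowest count of any member was 83, for miR-429 in the male November library (21.4 TPM, exact 95% Poisson interval 17.0 to 26.5, counting error only). TPM here is the count scaled by the total of the library with no length term. Mature miRNAs of near-identical sequence can share reads, and how such reads were assigned was not stated, so the split between members is uncertain to that extent. The libraries are of bulk tissue, in which fewer cells of a type and less RNA per cell cannot be told apart.

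miR-200c and miR-200b were the abundant members and ranked 22 and 24 by mean TPM among the listed miRNAs. miR-200a ranked 51, miR-141 ranked 93 and miR-429 ranked 157. Of the family's counts, miR-200b took 39.1% to 44.2% and miR-200c 38.4% to 52.7% over the 12 libraries. miR-200a took 6.60% to 17.9%, miR-141 1.06% to 3.11% and miR-429 0.233% to 0.389%. The seed group of miR-200a and miR-141 together ran from 7.88% in the male May library to 18.9% in the female September library.

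**Figure D1:**
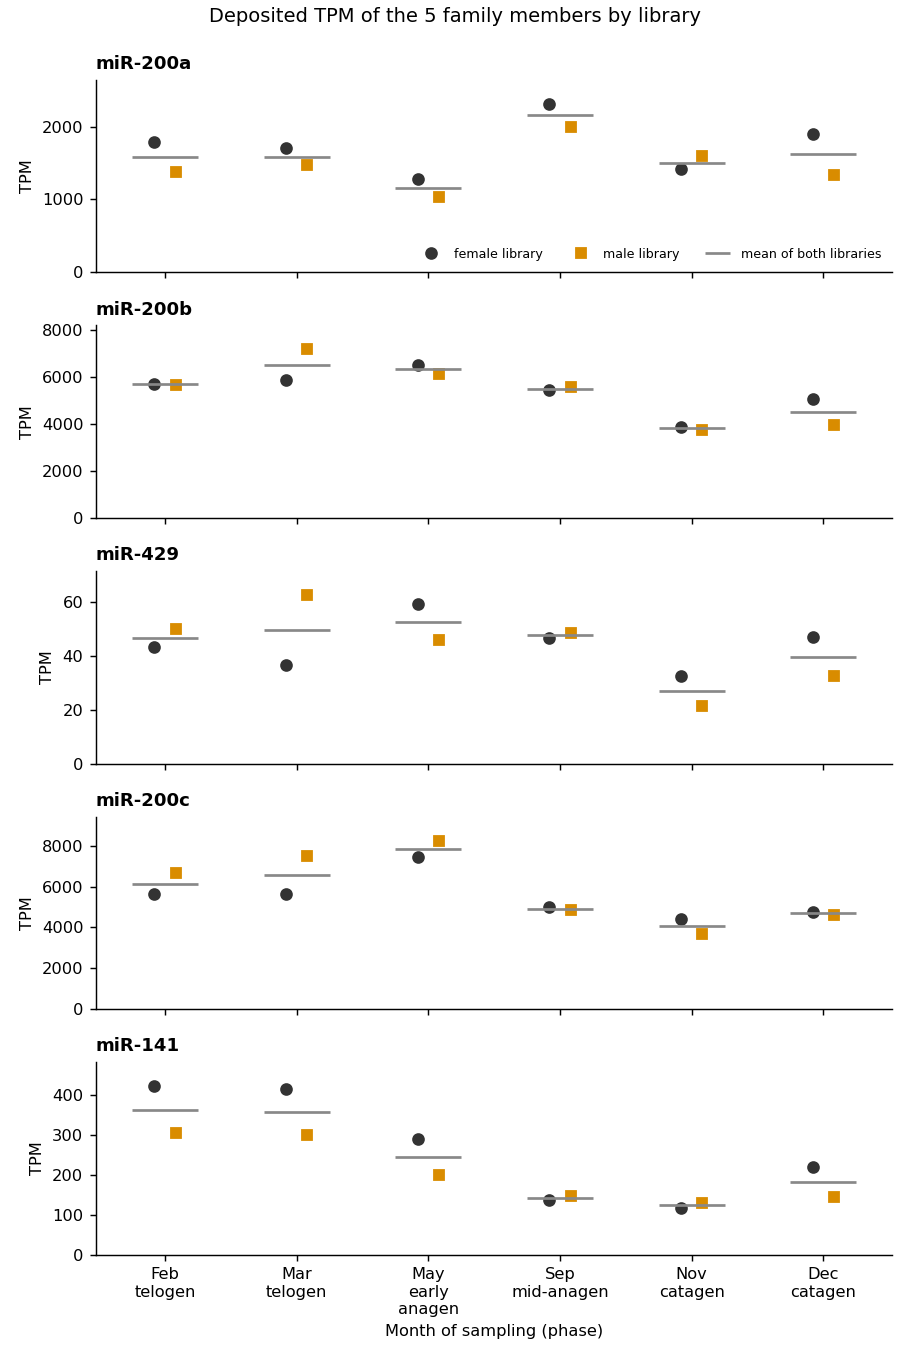
Deposited TPM (y axis, linear from 0) of each of the 5 family members by month of sampling and phase (x axis). Circles are female libraries, squares male libraries and grey lines the mean of both. miR-200a is lowest in May (1032 and 1283 TPM) and highest in September (1997 and 2314 TPM), and miR-141 stands at 300.2 TPM or more in the 4 telogen libraries and at 221 TPM or less in all 6 libraries from September to December.

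miR-200a had its lowest levels in May and its highest in September, and the rise between them was the family's only change past both limits of the test, adjusted p and fold, with TMM scaling. Its TPM in the female and male libraries was 1789 and 1379 in February, 1702 and 1471 in March, and 1283 and 1032 in May. It was 2314 and 1997 in September, 1414 and 1596 in November, and 1905 and 1333 in December. The September libraries lay above all 10 others and the May libraries below all 10 others, while the 4 other months overlapped one another. Here and below, the share of all miRNAs whose libraries lay apart in such a way was not counted. By phase, TPM was 1585 ± 192 in telogen (SD, n = 4), 1158 ± 177 in May (n = 2), 2155 ± 224 in September (n = 2) and 1562 ± 254 in catagen (n = 4). The paper's RT-qPCR also found miR-200a higher in September than in May, and the paper does not say whether the same goats were used. Its clustering, made on these same libraries, placed miR-200a in a group lowest in May.

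The edgeR quasi-likelihood test was run on counts after TMM normalization, over the 300 miRNAs above 5 CPM in at least 2 libraries, all 5 members among them. Adjusted p-values are Benjamini-Hochberg over the 300, and a call needs an adjusted p under 0.05 and at least a 2-fold change. miR-200a rose from May to September by 1.43 on the log2 scale (SE 0.23, 2.69-fold, edgeR adjusted p = 0.00131). With each library left out in turn the rise was 1.23 to 1.58, with an adjusted p under 0.05 in 12 of 12 fits. When libraries were scaled by their totals, without TMM, it was 0.90 (edgeR adjusted p = 0.00495), below 2-fold. That scaling moved the median of all 300 miRNAs from 0.07 to -0.46, and relative to this median the rise of miR-200a was 1.36 with TMM and 1.35 with library totals. A change of scaling shifts all miRNAs by nearly the same amount, so these values must be close and are no further support.

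The other steps of the cycle gave smaller differences for miR-200a. From telogen to May the log2 difference was -0.67 (SE 0.20, edgeR adjusted p = 0.0610), which did not pass, but it passed with sex as a block (-0.66, edgeR adjusted p = 0.0217) and without the male March library (-0.68, edgeR adjusted p = 0.0155). It also passed with upper quartile scaling (-0.84, edgeR adjusted p = 0.0263), but not with RLE (-0.72, edgeR adjusted p = 0.0506) or library totals (-0.45, edgeR adjusted p = 0.110). The step from September to catagen gave -0.44 (edgeR adjusted p = 0.619). For catagen to telogen it was -0.32 (edgeR adjusted p = 0.140), which passed with sex as a block (-0.34, edgeR adjusted p = 0.0390) and was 0.02 with library totals. The split into February to May and September to December was chosen with the members' levels by month already known. Its p-values, here and below, are therefore no independent evidence. Set against the 6 libraries of September to December, the 6 libraries of February to May were lower by 0.67 (log2 difference -0.67, SE 0.19, edgeR adjusted p = 0.0103). This difference passed with each library left out in turn (-0.79 to -0.54), but not with library totals (-0.29, edgeR adjusted p = 0.144) or upper quartile scaling (-0.51, edgeR adjusted p = 0.0557). Relative to the median miRNA it was -0.66 with TMM and -0.71 with library totals, values that again must be close.

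miR-141, which has the seed of miR-200a but comes from the other cluster, had its high levels in telogen. In the female and male libraries its TPM was 422 and 305 in February, 416 and 300.2 in March, and 291 and 200.3 in May. It was 137 and 147 in September, 118 and 130.4 in November, and 221 and 145 in December. All 4 telogen libraries lay above all 4 catagen libraries and both September libraries, and May overlapped only December. TPM was 361 ± 67.2 in telogen (SD, n = 4), 246 ± 64.0 in May (n = 2), 142 ± 7.06 in September (n = 2) and 154 ± 46.4 in catagen (n = 4).

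miR-141 rose from catagen to telogen by 0.91 on the log2 scale (SE 0.22, 1.88-fold, edgeR adjusted p = 0.00803), just under the 2-fold limit. With each library left out the rise was 0.78 to 1.08 and passed the adjusted p in 12 of 12 fits, and with library totals it was 1.23. February to May stood above September to December by 0.74 (SE 0.22, 1.67-fold, edgeR adjusted p = 0.0134), with 0.60 to 0.87 when single libraries were left out. This split was chosen with the levels by month known, so that p-value is no independent evidence. The difference of miR-141 from May to September, where miR-200a rose, was -0.27 (SE 0.31, edgeR adjusted p = 0.537, 95% interval -0.94 to 0.41). From telogen to May it was -0.77 (SE 0.28, edgeR adjusted p = 0.0966), which passed with sex as a block (-0.77, edgeR adjusted p = 0.0428) and without the male March library (-0.83, edgeR adjusted p = 0.0262). This step also passed with upper quartile scaling (-0.95, edgeR adjusted p = 0.0431), but not with RLE (-0.83, edgeR adjusted p = 0.0847) or library totals (-0.55, edgeR adjusted p = 0.182). From September to catagen it was 0.13 (edgeR adjusted p = 0.923).

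The erythrocyte markers miR-451 and miR-144 were, like miR-141, higher in telogen than in catagen. Their summed TPM was 27.9 to 115 in telogen, highest in the male March library, 24.5 to 45.9 in May, 16.6 to 28.3 in September and 5.41 to 26.4 in catagen. Of these 2, 1 passed from catagen to telogen with TMM, upward, where 42 of all 300 miRNAs did. Both markers passed upward with RLE, library totals and upper quartile scaling. The male March library had 300.2 TPM of miR-141 and the female one 416. In the female February and March libraries the markers summed to 28.2 and 27.9 TPM, with 422 and 416 TPM of miR-141. In the female September library they summed to 28.3 TPM, with 137 TPM of miR-141. Neither marker was at 0 in any library, and the part of red blood cells in the levels of miR-141 was not tested. miR-486 was not analysed here.

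miR-200b and miR-429, the cluster partners of miR-200a with the other seed, did not pass in any phase comparison with TMM and a filter of 5 CPM. The TPM of miR-200b in the female and male libraries was 5707 and 5646 in February, 5869.6 and 7166 in March, and 6508 and 6123 in May. It was 5443 and 5558 in September, 3873 and 3747 in November, and 5066 and 3936 in December. By TPM the 4 catagen libraries lay below the 8 others. With library totals the median log2 difference of all 300 miRNAs from catagen to telogen was 0.35. After TMM, which allows for the composition of a library, the log2 difference of miR-200b from catagen to telogen was 0.20 (SE 0.10, edgeR adjusted p = 0.150). It passed with library totals (0.55, edgeR adjusted p = 0.00487), upper quartile (0.39, edgeR adjusted p = 0.0159) and RLE scaling (0.29, edgeR adjusted p = 0.0317), with a filter of 50 CPM (0.30, edgeR adjusted p = 0.0237) and with DESeq2 (0.29, adjusted p = 0.00514). February to May and September to December differed by 0.01 (SE 0.11, edgeR adjusted p = 0.929, 95% interval -0.23 to 0.25), against 0.42 with library totals (edgeR adjusted p = 0.0109). In September miR-200b was 0.33 higher than in May (edgeR adjusted p = 0.100) and with library totals -0.20.

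miR-429 was the scarcest member. Its TPM in the female and male libraries was 43.0 and 49.8 in February, 36.5 and 62.4 in March, and 59.2 and 45.9 in May. It was 46.5 and 48.5 in September, 32.4 and 21.4 in November, and 46.7 and 32.4 in December. Each month overlapped its neighbours in the order of mean TPM, from May at the top (52.6 ± 9.40, SD, n = 2) through March, September, February and December to November (26.9 ± 7.79, n = 2). The largest of its phase differences was from September to catagen, at -0.49 (SE 0.25, edgeR adjusted p = 0.799, 95% interval -1.02 to 0.05).

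miR-200c, the cluster partner of miR-141 with the seed of miR-200b, also passed in no phase comparison with TMM and the filter of 5 CPM. In the female and male libraries its TPM was 5614 and 6689 in February, 5631 and 7505 in March, and 7435 and 8248 in May. It was 4998 and 4833 in September, 4416 and 3685 in November, and 4775 and 4631 in December. By TPM all 6 libraries of February to May were above all 6 of September to December. With library totals the median log2 difference of all 300 miRNAs between these parts of the year was 0.42. After TMM the difference of miR-200c was 0.16 (SE 0.09, edgeR adjusted p = 0.158, 95% interval -0.03 to 0.36), and with library totals it was 0.59 (edgeR adjusted p = 0.00112). It passed as well with RLE (0.24, edgeR adjusted p = 0.0371), upper quartile scaling (0.30, edgeR adjusted p = 0.0310), the filter of 50 CPM (0.29, edgeR adjusted p = 0.0212) and DESeq2 (0.24, adjusted p = 0.00496). The step from catagen to telogen gave 0.17 (edgeR adjusted p = 0.183). It passed with library totals (0.54, edgeR adjusted p = 0.00608), upper quartile (0.36, edgeR adjusted p = 0.0308) and RLE scaling (0.26, edgeR adjusted p = 0.0460), the filter of 50 CPM (0.28, edgeR adjusted p = 0.0322) and DESeq2 (0.26, adjusted p = 0.0128). For May to September the difference was -0.14 (edgeR adjusted p = 0.452), and with library totals -0.67 (edgeR adjusted p = 0.00950).

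**Figure D2:**
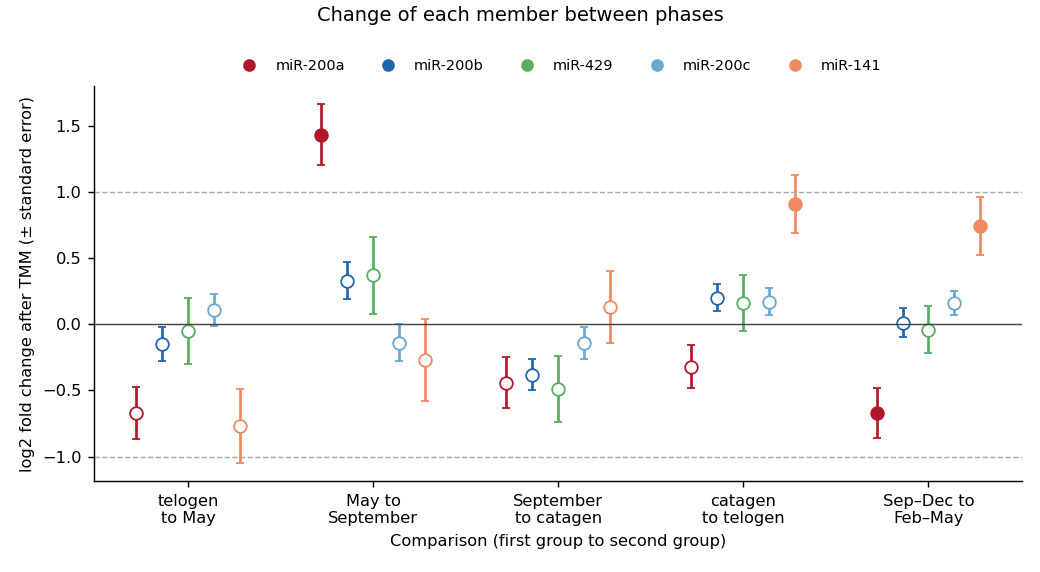
Log2 fold change with its standard error (y axis, after TMM) of each member in 4 steps of the cycle and between the 6 libraries of September to December and the 6 of February to May (x axis, first group to second). Filled points have an edgeR adjusted p under 0.05 and dashed lines mark 2-fold. miR-200a stands out at 1.43 from May to September, miR-141 at 0.91 from catagen to telogen, and the other 3 members stay between -0.49 and 0.37.

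Read against all tested miRNAs, the share of members that were called was near or below the background in each comparison. Between May and September 1 of 5 members was called, where 18.3% of the 300 were, and 1 of 5 passed the adjusted p at any fold, where 34.0% did. Between catagen and telogen 0 of 5 were called against 10.7%, and 1 of 5 passed at any fold against 35.0%. Between February to May and September to December 0 of 5 were called against 12.7%, and 2 of 5 passed at any fold against 46.0%. From telogen to May 0 of 5 were called against 2.33% and 0 of 5 passed at any fold against 5.33%. Over all 300 miRNAs 88 had an unadjusted p under 0.05 there, and DESeq2 passed miR-200a and miR-141 (adjusted p = 0.0119 and 0.0351). From September to catagen edgeR called 0 miRNAs and 0 members, so the background was 0% under both limits. There, 23 miRNAs had an unadjusted p under 0.05 and DESeq2 called 1 of 300, while 3 of 300 passed its adjusted p, miR-200b among them (-0.38, DESeq2 adjusted p = 0.0497).

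The direction of calls over all miRNAs shifted with the scaling. Of the calls from May to September, 29 of 55 were upward with TMM and 9 of 80 with library totals. Between catagen and telogen 19 of 32 were upward with TMM and 43 of 48 with library totals, and for February to May over September to December the counts were 20 of 38 and 57 of 61. Ratios between members within a library do not depend on this choice, so they were compared next, with 1 added to each count.

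The ratio of miR-200a to miR-141 separated the year into 2 ranges. In the female and male libraries it was 4.23 and 4.52 in February, 4.09 and 4.90 in March, and 4.41 and 5.15 in May. It was 16.8 and 13.5 in September, 11.9 and 12.2 in November, and 8.60 and 9.20 in December. From February to May the 6 values stayed within 1.26-fold of each other and the 3 months overlapped. From September on, the female and male libraries of each month lay together and apart from the next month, in the order September, November, December. Every value of September to December was above every value of February to May.

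The split of the year was chosen with the members' levels by month known from earlier results of these data. Its p-values are therefore no independent evidence of a difference. The geometric mean ratio was 11.7 in September to December and 4.53 in February to May, a log2 difference of -1.37 (SDs of log2 ratios 0.36 and 0.13, n = 6 and 6, exact two-sided permutation p = 0.00216, the smallest that 6 against 6 allow, adjusted over 9 ratios p = 0.00974). This and the other permutation tests between phases or parts of the year take libraries as independent, though they come in pairs from the same month. Where such pairs are alike, the p-value overstates the evidence, and no test with months as units was run. With each library left out the difference was -1.46 to -1.27. From catagen to telogen the ratio went from 10.4 to 4.42 (log2 difference -1.23, n = 4 and 4, exact permutation p = 0.0286, the smallest possible, adjusted p = 0.0857). From May to September it went from 4.76 to 15.1, a log2 difference of 1.66 with n = 2 and 2, where no exact permutation test can go below 0.333. Both members have the same seed and come from different clusters.

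In the other seed group the matching ratio between the clusters stayed close to 1. The ratio of miR-200b to miR-200c lay between 0.742 and 1.15 in all 12 libraries. Its mean log2 value was -0.14 in February to May and 0.00 in September to December (log2 difference -0.14, SDs of log2 ratios 0.18 and 0.18, n = 6 and 6, exact permutation p = 0.186, adjusted p = 0.209). September was highest (1.09 and 1.15) and May lowest (0.742 and 0.875), a log2 difference of 0.47 from May to September. The ratio of miR-429 to miR-200b, which share both cluster and seed, went from 0.00809 in September to December to 0.00795 in February to May (log2 difference -0.02, exact permutation p = 0.818, adjusted p = 0.818, n = 6 and 6). As a description, added after the values were seen and given without a test, the ratio of miR-200a to miR-141 divided by that of miR-200b to miR-200c was 8.10 to 15.4 in September to December and 3.93 to 6.93 in February to May.

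**Figure D3:**
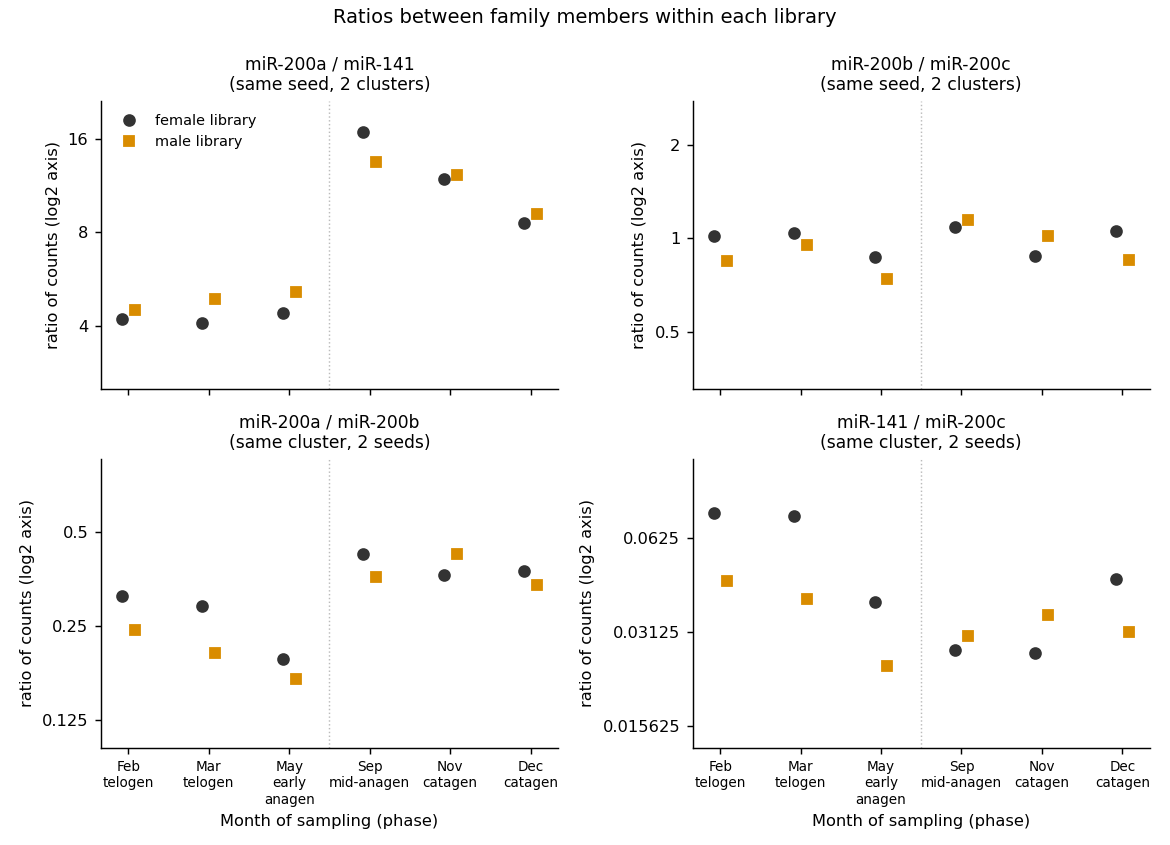
Ratio of counts between pairs of members within each library (y axes, log2 scale, each spanning the same number of doublings) by month and phase (x axis). Circles are female and squares male libraries, and the dotted line parts February to May from September to December. miR-200a over miR-141 lies at 4.09 to 5.15 left of the line and at 8.60 to 16.8 right of it, while miR-200b over miR-200c stays between 0.742 and 1.15.

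Within the cluster of miR-200a, the ratio across seeds also split the year. miR-200a over miR-200b in the female and male libraries was 0.313 and 0.244 in February, 0.290 and 0.205 in March, and 0.197 and 0.169 in May. In September it was 0.425 and 0.359, in November 0.365 and 0.426, and in December 0.376 and 0.339. The 2 ranges did not overlap, and May stood below March and February. The geometric mean was 0.380 in September to December and 0.231 in February to May (log2 difference -0.72, SDs of log2 ratios 0.13 and 0.34, n = 6 and 6, exact permutation p = 0.00216, the smallest possible, adjusted p = 0.00974), and -0.81 to -0.63 with single libraries left out. From catagen to telogen it went from 0.375 to 0.260 (log2 difference -0.53, n = 4 and 4, exact permutation p = 0.0286, the smallest possible, adjusted p = 0.0857), and from May to September from 0.182 to 0.391 (log2 difference 1.10, n = 2 and 2). miR-200a over miR-429 had a log2 difference of -0.70 between February to May and September to December (exact permutation p = 0.0303, adjusted p = 0.0545, n = 6 and 6).

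Within the other cluster, miR-141 over miR-200c was 0.0400 to 0.0753 in telogen and 0.0269 to 0.0464 in catagen. The geometric mean was 0.0343 in catagen and 0.0565 in telogen, which did not pass (log2 difference 0.72, n = 4 and 4, exact permutation p = 0.0857, adjusted p = 0.193). Between September to December and February to May the log2 difference was 0.51 (exact permutation p = 0.108, adjusted p = 0.139, n = 6 and 6). The sign was opposite to that of miR-200a over miR-200b.

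Summed by seed, the group of miR-200a and miR-141 stood at 0.206 of the other group in September to December and 0.133 in February to May (log2 difference -0.63, exact permutation p = 0.0130, adjusted p = 0.0390, n = 6 and 6). This passed without the female February, female March or male December library but not without any one of the 9 others (adjusted p 0.0519 to 0.0779, exact permutation tests). With the mean of log2 levels in place of summed counts, in which miR-141 weighs as much as miR-200a, the difference was -0.07. The seed ratio was 0.0981 in May and 0.219 in September, and went from catagen to telogen from 0.199 to 0.155 (exact permutation p = 0.143, adjusted p = 0.257, n = 4 and 4).

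Summed by cluster, miR-200a, miR-200b and miR-429 stood at 1.35 times miR-200c and miR-141 in September to December and at 1.07 times in February to May (log2 difference -0.33, exact permutation p = 0.0238, adjusted p = 0.0536, n = 6 and 6). It passed without the female February, female March or male December library (adjusted p 0.0292 to 0.0390, exact permutation tests). The cluster ratio was 0.931 in May and 1.52 in September, and both September libraries (1.52 and 1.53) stood above both May libraries (0.852 and 1.02).

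The whole family took 0.918% to 1.65% of the miRNA counts of a library. In the female and male libraries the share was 1.36% and 1.41% in February, 1.37% and 1.65% in March, and 1.56% and 1.56% in May. It was 1.29% and 1.26% in September, 0.985% and 0.918% in November, and 1.20% and 1.01% in December. The 6 libraries of February to May were above the 6 of September to December. With library totals the median log2 difference of all 300 miRNAs between them was 0.42. A share of the library takes no account of its composition: the TMM factors were 1.01 to 1.29 in February to May and 0.813 to 0.916 from September on, and whether the abundant members miR-200b and miR-200c passed depended on the scaling, as given above.

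**Figure D4:**
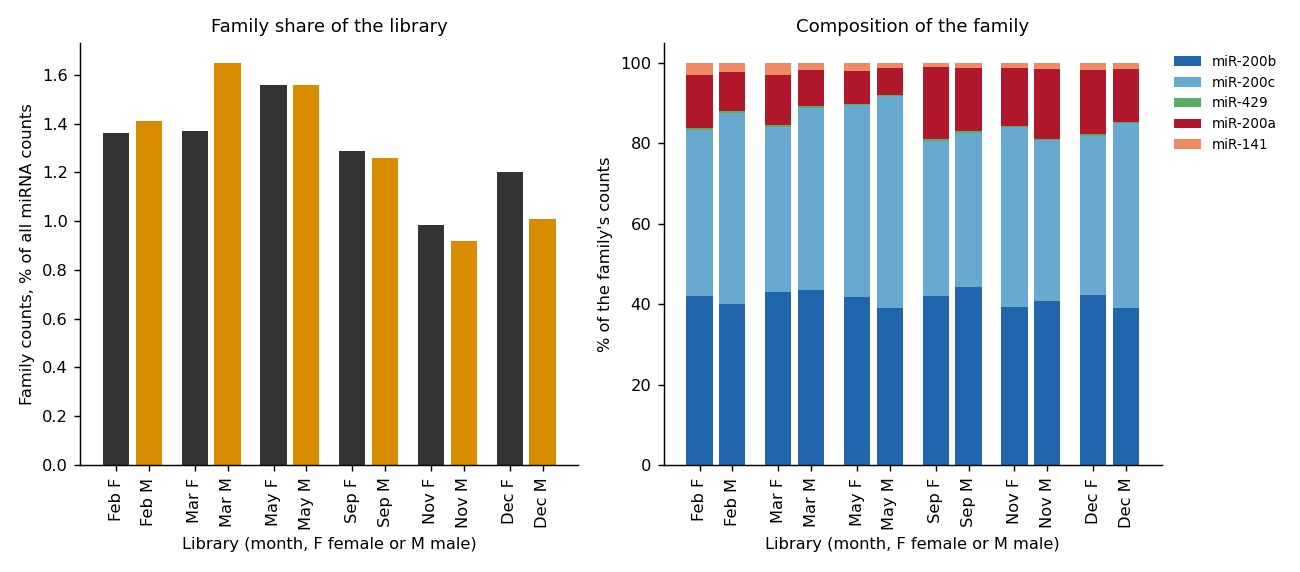
Left, the family's counts as a percent of all miRNA counts of each library (y axis, bars from 0); right, the share of each member in the family's counts (y axis, percent). Libraries run by month on the x axes, F female and M male. The family's share is 1.36% to 1.65% from February to May and 0.918% to 1.29% from September to December, and the share of miR-200a in the family is lowest in May (8.24% and 6.60%).

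The family was also set against other miRNAs typical of epithelium, and its ratio to them did not overlap between telogen and catagen. The epithelial list held miR-203, the abundant miRNA of the suprabasal epidermis, miR-183, miR-182 and miR-96, which form a cluster, and miR-184. All 5 were tested and none was at 0 in any library, while miR-205 and miR-31 were not analysed here. The ratio of family counts to the counts of this list was 0.203 to 0.303 in telogen and 0.130 to 0.172 in catagen (log2 difference 0.71, n = 4 and 4, exact permutation p = 0.0286, the smallest possible, adjusted p = 0.0857). It was 0.211 and 0.235 in May and 0.205 and 0.286 in September. miR-203 made up 96.9% to 98.9% of the list's sum, so this is in effect a ratio to miR-203. The paper's in situ hybridization detected miR-203 in the hair shaft of anagen SHFs. By its RT-qPCR, SHFs held far less miR-203 than epidermis and primary follicles did. The list's sum need not stand for the epithelium of the follicle in general. The part of hair shaft, or of epidermis and primary follicles left after dissection, in this ratio was not tested.

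Of the epithelial list, 4 of 5 passed downward from catagen to telogen and 0 upward, where 63 of all 300 miRNAs passed downward and 42 upward. The median log2 difference of the list was -0.57, against 0.00 over all 300 miRNAs. miR-203 had -0.57 (edgeR adjusted p = 0.0124), miR-183 -0.47 (edgeR adjusted p = 0.00517), miR-184 -2.05 (edgeR adjusted p = 0.00755) and miR-182 -0.66 (edgeR adjusted p = 0.0234). The fifth, miR-96, went the other way without passing (0.78, edgeR adjusted p = 0.0704). With library totals, as with upper quartile scaling, 1 passed downward and 1 upward, and with library totals the median relative to all miRNAs was -0.55. In September against May 2 of 5 passed upward, miR-183 (1.05, edgeR adjusted p = 0.000894) and miR-182 (1.62, edgeR adjusted p = 0.00206). Upward passes over all 300 numbered 56, and the list's median was 1.05 against 0.07 over all miRNAs. Between February to May and September to December 4 of 5 passed downward, where 79 of all 300 did, with a median of -0.67 against -0.01. With library totals 2 of the list passed downward and 1 upward. From telogen to May 1 of 5 passed downward, miR-182 (-1.07, edgeR adjusted p = 0.0341), where 9 of all 300 did, and 0 passed with library totals. The summed TPM of the list overlapped between the phases, at 45092 to 81179 in telogen and 58761 to 83438 in catagen.

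The 9 listed mesenchymal miRNAs are commonly taken to mark fibroblasts, smooth muscle and the dermal part of the follicle. The paper's in situ hybridization, however, placed miR-143-3p, the most abundant of them (mean 89983 TPM), in the hair matrix. The list's sum need not stand for dermal cells alone. From catagen to telogen 3 of the 9 passed upward and 2 downward, where 42 and 63 of all 300 did (median 0.28 against 0.00 over all miRNAs). miR-199a-3p rose by 0.55 (edgeR adjusted p = 0.00873), while miR-143-3p had -0.55 (edgeR adjusted p = 0.00873). In September against May 3 passed upward and 3 downward, where 56 and 46 of all 300 did. The difference was 1.17 for miR-143-3p (edgeR adjusted p = 0.00131) and -0.85 for miR-199a-3p (edgeR adjusted p = 0.00677), and the list's median was -0.32 against 0.07. With library totals 6 passed upward and 1 downward from catagen to telogen, and 1 upward and 5 downward from May to September. Their summed TPM was 123496 to 146839.9 in telogen, 136171 to 140589 in May, 140852 to 141278 in September and 118318 to 148888 in catagen. Direction in this list thus differed from member to member, and its part in the levels of miR-200a and miR-141 was not tested.

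Among miRNAs known to repress other transcription factors of the epithelial-mesenchymal transition, 5 of 6 listed arms were tested. In September against May 1 passed upward and 0 downward, which was miR-30a-3p (1.32, edgeR adjusted p = 0.00240), and with library totals, RLE or upper quartile scaling 1 passed in each direction. miR-30a-5p, the abundant arm of that precursor, had 0.27 (edgeR adjusted p = 0.282) and miR-34a -0.52 (edgeR adjusted p = 0.0536). From catagen to telogen 2 passed downward, miR-203 and miR-30a-3p (-0.55, edgeR adjusted p = 0.0271), and with library totals 0 passed. Over all 300 miRNAs 34.0% passed from May to September with TMM, and 35.0% from catagen to telogen.

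Markers of other cells that a dissected follicle can carry were also counted. With TMM, 35.0% of all 300 miRNAs passed from catagen to telogen and 34.0% from May to September, in either direction. Of 4 tested muscle arms 0 passed from catagen to telogen and 1 passed upward from May to September. Both tested arms of the endothelial miR-126 gave 0 and 1 in the same steps. Of 4 leukocyte arms (miR-150, miR-223 and miR-155) 2 passed upward from catagen to telogen, both of them arms of miR-223, and 2 upward from May to September. From telogen to May 2 of these 4 passed downward, where 9 of all 300 miRNAs did, and 0 passed with library totals. They were miR-223-3p (-1.64, edgeR adjusted p = 0.0388) and miR-223-5p (-1.59, edgeR adjusted p = 0.0341). The muscle arms and miR-126 gave 0 in that step. With library totals, May to September gave 0 upward and 2 downward for muscle, 0 and 1 for miR-126, and 0 and 0 for the leukocyte arms, and 1 arm of miR-126 passed upward from catagen to telogen. The summed TPM of the leukocyte arms was 442 to 664 in telogen, 416 to 434 in May, 415 to 588 in September and 393 to 539.8 in catagen. The part of these cells in the levels of the family was not tested, and miR-142 was not analysed here.

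The members were most like different miRNAs over the year. By Pearson's r of TMM log2 CPM over the 12 libraries, which share their scaling, miR-200a was most like miR-22-3p (r = 0.92), miR-143-3p (r = 0.91) and miR-877-5p (r = 0.90) among 295 tested miRNAs outside the family. miR-141 was most like miR-29a-3p (r = 0.93), miR-374a-5p (r = 0.90) and miR-190a-5p (r = 0.89). miR-200c was most like miR-454-3p (r = 0.82), miR-379-3p (r = 0.80) and miR-655 (r = 0.79). For miR-200b and miR-429 no miRNA outside the family came above 0.68, which miR-214-3p reached for miR-200b and miR-542-3p for miR-429.

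Inside the family, the closest pair was miR-200b and miR-429 (r = 0.77), which share cluster and seed. miR-200a had r = 0.45 with miR-200b and r = -0.56 with miR-200c, and with miR-141, of the same seed, r = -0.08. miR-141 and miR-200c, of the same cluster, had r = 0.14. These correlations are descriptions over months that differ in phase, and no test was made of them.

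The sexes were compared in a model with month as a term, and edgeR called 0 of 5 members and 0 of 300 miRNAs, so the background was 0% under both limits, with 34 miRNAs at an unadjusted p under 0.05. DESeq2 also called 0 of 300, with 26 at an unadjusted p under 0.05. miR-141 had a log2 difference of male to female of -0.40 (SE 0.14, edgeR adjusted p = 0.310, 95% interval -0.71 to -0.10) and miR-200a of -0.34 (SE 0.10, edgeR adjusted p = 0.267, 95% interval -0.57 to -0.10). The log2 differences of miR-200b, miR-429 and miR-200c were -0.13, -0.16 and -0.02. miR-141 was higher in the female than in the male library of February, March, May and December, and lower in September and November.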

How the data were processed

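Small RNA libraries of SHFs were analysed as deposited, 12 in all. Per the labels and methods, the authors trimmed adapters, mapped reads to CHIR_2.0 and quantified miRNAs with Bowtie 0.12.9. They deposited, for each library, a raw, unscaled count and a TPM value of each of 376 miRNAs. Counts divided by library totals gave the deposited TPM with deviations of at most 0.00499. Reads of multiple origin were already assigned. Within each month the 2 libraries differed by 65.2 to 635 times the chi-square degrees of freedom and were kept as separate samples.

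Counts were tested in R 4.3.3 with edgeR 4.0.16 (TMM, more than 5 CPM in at least 2 libraries, glmQLFit and glmQLFTest, call at an adjusted p under 0.05 and at least 2-fold), in 1 fit of the 4 phases, 1 of February to May against September to December, and 1 of sex with month. The standard error is the log2 fold change over the root of F. Ratios had 1 added to each count and were tested by exact two-sided permutation (scipy 1.17.1), with Benjamini-Hochberg adjustment over the 9 ratios of a comparison. On simulated independent libraries edgeR recovered most of the changes of 2 on the log2 scale that were put in. The permutation test recovered a simulated shift of 2. The members' changes were smaller and the real libraries come in month pairs, so this gives no power or error rate for them.

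The members, the lists, the comparison of February to May with September to December and the ratios were chosen with earlier results of these data known. The rule for named miRNAs was all members, up to 4 per list by mean TPM, and the 3 most correlated miRNAs per member. miRNAs that passed in a list were also named after their values were seen. Seed groups were taken from general knowledge, as no table of mature sequences was used here. Alternatives were DESeq2 1.42.0, other scalings, filters and pseudocounts, sex as a block, fits by month or of only the groups compared, and each library left out. Total counts were 3135292 to 5788032 per library, and precision is lowest for May and September, with 2 libraries each.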

Additional observations from a re-analysis of the deposited data

Results flagged for a closer look

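Of 30 sets of 4 telogen or catagen libraries, 4 had a library far from the 3 others by Dixon's limit for 4 values (0.829 of the range), where chance alone marks about 1 set in 20. miR-200b had 7166 TPM in the male March library, against 5646 to 5869.6 in the other telogen libraries. The whole family took 1.65% of the counts of that library, against 1.36% to 1.41%. miR-200b had 5066 TPM in the female December library, against 3747 to 3936 in the other catagen libraries. The log2 ratio of miR-200a to miR-429 was 6.20 in the male November library, where miR-429 had its lowest count, against 5.34 to 5.43 in the other catagen libraries.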

How the results depend on the processing

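Beyond the values given in the report, direction turned for differences near 0. With library totals the log2 difference from catagen to telogen was 0.02 for miR-200a, from telogen to May 0.05 for miR-200b and 0.14 for miR-429, from May to September -0.20 for miR-200b and -0.15 for miR-429, and for February to May over September to December 0.38 for miR-429. That last value of miR-429 was 0.04 with RLE and with DESeq2, 0.10 with upper quartile scaling, 0.01 without a filter and 0.09 with a filter of 50 CPM, under which telogen to May was 0.04. miR-200c from female to male was 0.01 with RLE and DESeq2, 0.08 with library totals, no filter and the filter of 50 CPM, and 0.04 with upper quartile scaling, with which telogen to May was -0.04. With single libraries left out, ranges over 0 were -0.02 to 0.23 for miR-141 from September to catagen, -0.04 to 0.11 for miR-200b and -0.15 to 0.06 for miR-429 over February to May against September to December, -0.11 to 0.15 for miR-429 from telogen to May, -0.04 to 0.06 for miR-200c between the sexes, and -0.12 to 0.04 for miR-429 over miR-200b. The cause was not tested.

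Of members called, May to September gave 0 with library totals. Catagen to telogen gave 1, miR-141, with RLE, library totals, upper quartile scaling, DESeq2, the filter of 50 CPM or no minimum fold, and 0 to 1 with single libraries left out (1 without the male March or the female December library). February to May against September to December gave 1 with library totals and 2 with no minimum fold.

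Of ratios, the mean of log2 levels gave 0.09 for the seed ratio from catagen to telogen, and for February to May against September to December -0.07 for the seed ratio and -0.65 for the cluster ratio (adjusted p = 0.00649, exact permutation), with 0.41 and 0.91 from May to September. With single libraries left out the seed ratio was -0.73 to -0.50, the cluster ratio -0.38 to -0.26 and the family over the epithelial list 0.35 to 0.58, which passed without the female September library (0.58, adjusted p = 0.0260, exact permutation). Without miR-203 in the list, an alternative chosen after seeing the data, the family ratio was 0.99 (adjusted p = 0.00649, exact permutation) and from May to September -1.03. In female libraries alone, catagen to telogen gave -0.07 for the seed ratio, -0.30 for miR-200a over miR-200b and 1.04 for the family ratio, and in male libraries alone -0.64, -0.76 and 0.38. From May to September, females gave 0.58 (cluster ratio), -0.51 (miR-141 over miR-200c), 1.93 (miR-200a over miR-141) and 0.44 (family ratio), and males 0.84, 0.33, 1.39 and -0.20. The labels give no replicate numbers, so female and male libraries served as the block. With sex as a block, miR-200a and miR-141 from telogen to May and miR-200a from catagen to telogen passed. The arms-only setting and the ratio to miR-205 alone were not run, as the names carry no arm and miR-205 was not analysed here. With 2 libraries each, May and September limit what a ratio test can show, and counting error limits miR-429 most.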

Other observations

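Female and male libraries were also compared month by month on ratios within a library, a comparison added after the values were seen. The seed group of miR-200a and miR-141 was lower relative to the other seed group in the male library in 5 of 6 months, with a mean log2 difference of -0.28 ± 0.34 (SD, n = 6 months, exact sign-flip permutation p = 0.125, adjusted over 9 ratios p = 0.375). miR-200a over miR-200b was lower in males in 5 of 6 months (-0.21 ± 0.24, exact sign-flip permutation p = 0.0938, adjusted p = 0.375) and miR-141 over miR-200c in 4 of 6 (-0.38 ± 0.53, exact sign-flip permutation p = 0.125, adjusted p = 0.375). The smallest p that 6 months allow is 0.0312. miR-200a over miR-141 was lower in males in 1 of 6 months (0.07 ± 0.20, exact sign-flip permutation p = 0.406, adjusted p = 0.562).

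The difference between the sexes in telogen set against that in catagen passed for 0 of 5 members and 4 of 300 miRNAs (edgeR). The largest among the members was 0.79 for miR-429 (edgeR adjusted p = 0.240).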
